A study of Mus musculus with 48 samples.

Results

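The comparison described here is mouse duodenum at day 8 after birth against duodenum at day 2, with 3 samples of each age, 6 of the 48 samples of a series on the small intestine after birth. The samples were chosen by region and age as labelled, and days 4 and 6, which lie between, entered only the alternative fit with all 48 samples. All animals were C57Bl6/J mice of both sexes with no mutation or treatment named, kept with the dam until day 21, in housing that the labels call standard germ-free. Whether the animals carried microbes cannot be told from that wording. Each sample was total RNA from 2 cm of the whole thickness of the gut wall, taken just past the pylorus. Ileum of the same ages and strain, 2 cm taken just before the ileocecal junction, with 3 samples of each age, served to test where the duodenum differed from it, and shared the estimate of spread in the fit. Samples of day 0 and weeks 2, 3 and 4 from both regions shared that estimate too, so that 36 samples in 12 groups were fitted. The labels say that several ages usually came from 1 litter, but not which samples shared a litter or an animal. The p-values thus measure the spread between samples within the groups of this fit.

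The inner surface of the small intestine is renewed from crypts, where stem cells divide and give rise to absorptive enterocytes and to mucus-making goblet, hormone-making enteroendocrine, chemosensory tuft and defensin-making Paneth cells. In the mouse the gut is immature at birth: crypts deepen and Paneth cells appear during the suckling weeks, while enterocytes take up milk fat, lactose and intact maternal proteins. Under the epithelium lie fibroblasts, vessels, immune cells, nerves and muscle, which send Wnt, BMP and other signals to the crypts.

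The 6 duodenum libraries held 34332542 to 46692201 estimated counts at day 2 and 46719526 to 48920343 at day 8, with counts for 25060 to 26520 genes each. Spearman's rho between libraries was 0.988 to 0.996 within an age and 0.933 to 0.944 between ages, over 14038 genes. Levels are given as CPM, each gene's count relative to its library's total, scaled by edgeR's trimmed mean method. Pdx1, a transcription factor of the duodenum, stood at 14.1, 11.9 and 12 CPM at day 2 and 13.9, 13.6 and 13.7 CPM at day 8, while in ileum its mean was 0.410 ± 0.103 CPM (SD, n = 3) at day 2. The epithelial genes Epcam and Vil1 were at 978 ± 29.8 and 864 ± 18.9 CPM (SD, n = 3) at day 2, and at 1194 ± 34.4 and 666 ± 53.7 CPM (SD, n = 3) at day 8. Neither passed the test (edgeR adjusted p = 0.167 for Epcam and 0.0606 for Vil1). The ages also differed in measures other than age: mitochondrial genes took 16.71 to 18.22% of counts at day 2 and 21.71 to 24.56% at day 8, and samples 2 and 3 of day 2 were male by their Ddx3y reads (45.8 CPM or more) while the other 4 samples had Xist at 983.5 CPM or more and Ddx3y at 0.0285 CPM or less. Where a list's count of 3 or more changed by more than 1.5 times without the male samples, that count is given beside it. In that fit the lone day 2 sample is assumed to vary like the other groups.

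Of 54532 genes in the table, 20442 were tested, and 8788 of them (43%) were called at an edgeR adjusted p under 0.05. Higher at day 8 were 4415 genes (21.6% of those tested), and lower were 4373 (21.4%). The counts of each list below are to be read against these shares. Past 2-fold, 1597 called genes were higher (7.81%) and 2424 were lower (11.9%). The samples of the ages did not overlap for 13380 genes (65.5%), 31.3% higher and 34.2% lower. The median log2 difference, day 8 minus day 2, over all tested genes was -0.08. With a sex index (log2 Xist minus log2 Ddx3y) added to the fit, 8330 genes were called. Without the day 2 males 5325 genes were called, 2244 of them higher. In what follows ± on a log2 difference is its standard error, and sample values are given in the order 1, 2, 3.

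Genes of dividing cells rose together. All 39 genes of the cell cycle and DNA replication list passed the test as higher at day 8, with a median log2 difference of 1.37, and their summed level went from 1608–1855 CPM to 4316–4681 CPM. Mki67, the proliferation marker Ki-67, was at 231, 243 and 267 CPM at day 2 and at 750.3, 709 and 686 CPM at day 8. Every day 8 sample was above every day 2 sample, and the log2 difference was 1.53 ± 0.23 (edgeR adjusted p = 4.59e-06). Ccnb2, a mitotic cyclin, was at 17.1, 18 and 21.3 CPM and then at 59.7, 55.3 and 56.9 CPM (1.61 ± 0.19, edgeR adjusted p = 2.02e-07). The day 8 samples of Ccnb2 lay within a few CPM of each other. Cenpa, the histone variant of the centromere, rose by 1.44 ± 0.16 on the log2 scale, Birc5 (survivin) by 1.45 ± 0.18, the thymidylate synthase gene Tyms by 1.55 ± 0.19 and the S-phase cyclin Ccna2 by 1.62 ± 0.24.

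The promoters of mitotic genes carry a known pair of elements, a CCAAT box and the cell cycle homology region with core TTTGAA, and 4 of the genes that rose show both within 150 bases before to 20 bases after the RefSeq start. They are printed on the gene's strand, GRCm38 build, with every CCAAT and TTTGAA in capitals, which read ATTGG and TTCAAA where the match is on the other strand. Ccnb2 lies at chr9:70421535-70421704 (minus strand), Cdc20 at chr4:118437324-118437493 (minus), Ube2c at chr2:164769779-164769948 (plus) and Top2a at chr11:99024170-99024339 (minus).
Ccnb2: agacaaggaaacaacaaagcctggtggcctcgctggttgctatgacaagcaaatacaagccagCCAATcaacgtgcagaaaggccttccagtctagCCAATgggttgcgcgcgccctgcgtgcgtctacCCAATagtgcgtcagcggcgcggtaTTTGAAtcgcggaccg
Cdc20: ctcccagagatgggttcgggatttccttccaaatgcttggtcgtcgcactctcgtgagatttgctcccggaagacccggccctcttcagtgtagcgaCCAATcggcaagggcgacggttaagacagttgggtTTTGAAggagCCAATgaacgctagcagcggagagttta
Ube2c: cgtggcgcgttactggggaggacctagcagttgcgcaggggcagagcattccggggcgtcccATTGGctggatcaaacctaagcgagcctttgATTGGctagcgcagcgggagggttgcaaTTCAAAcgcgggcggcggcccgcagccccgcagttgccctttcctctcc
Top2a: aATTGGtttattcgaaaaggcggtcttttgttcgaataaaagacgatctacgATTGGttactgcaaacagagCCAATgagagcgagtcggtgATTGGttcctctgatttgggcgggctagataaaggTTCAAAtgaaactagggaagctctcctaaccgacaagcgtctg
A window was in the table for 30 of the 39 listed genes, and 10 of the 30 (33.3%) held TTTGAA on either strand, 24 (80%) held CCAAT and 9 held both. Over all 27025 windows, 10.2% held TTTGAA, 26.9% held CCAAT and 2.74% held both. A match is a run of letters and says nothing of binding here. Cdc20, the activator of the anaphase-promoting complex, was at 16.8, 18.1 and 19.4 CPM at day 2 and at 55.1, 49.3 and 50.5 CPM at day 8 (1.51 ± 0.22, edgeR adjusted p = 2.71e-06). Ube2c, the ubiquitin-conjugating enzyme of that complex, rose by 1.43 ± 0.21 and Top2a, the topoisomerase of dividing cells, by 1.46 ± 0.21.

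Crypt genes rose with them. Of 22 markers of crypt stem and progenitor cells, 21 passed the test as higher, the median log2 difference was 1.38, and the summed level went from 1528–1914 CPM to 5623–6429 CPM. Olfm4, a secreted glycoprotein of crypt base cells, was at 670.2, 951 and 812 CPM at day 2 and at 3452, 4178 and 4123 CPM at day 8. The lowest day 8 sample was far above the highest day 2 sample (2.27 ± 0.24, edgeR adjusted p = 2.58e-08). Axin2, a feedback inhibitor and direct target of Wnt signalling, was at 33.4, 34.5 and 35.9 CPM and then at 108, 112 and 113 CPM (1.68 ± 0.15, edgeR adjusted p = 1.91e-09). Samples of an age differed little in Axin2. The BMP co-receptor Rgmb rose by 1.65 ± 0.15 and Cdca7, a Myc target, by 1.77 ± 0.20. Among 18 genes of the Wnt and R-spondin list 6 were higher and 4 lower, with 2 lower without the day 2 males. Wnt3, the ligand that Paneth cells make, went from 1.6, 1.99 and 1.42 CPM to 5.97, 6.82 and 6.59 CPM, and the receptor Fzd7 rose by 1.79 ± 0.17. The secreted inhibitor Sfrp1, by contrast, went from 2.83, 3.43 and 4.09 CPM to 0.169, 0.283 and 0.327 CPM (-3.71 ± 0.44, edgeR adjusted p = 2.02e-07).

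Genes that make ribosomes also rose. Of 90 genes for proteins of the cytosolic ribosome 85 were tested and 78 passed as higher, with a median log2 difference of 1.15, and their sum went from 15460–16860 CPM to 34800–35470 CPM. Rpl4, a protein of the large subunit, was at 495, 527 and 554 CPM at day 2 and at 1232, 1208 and 1228 CPM at day 8. The groups were well apart (1.22 ± 0.18, edgeR adjusted p = 5.64e-06), as they were for Rps2 of the small subunit (1.29 ± 0.17). All 22 genes of ribosome assembly, a list added after seeing the data, were higher with a median log2 difference of 1.3. Npm1, the nucleolar chaperone, went from 237, 259.7 and 279.6 CPM to 826, 816 and 744 CPM (1.62 ± 0.23). Myc, the transcription factor that drives ribosome synthesis in many cells, went from 22.1, 24.5 and 28.8 CPM to 67.4, 64.8 and 65.5 CPM (1.39 ± 0.20, edgeR adjusted p = 3.21e-06). Ribosomal protein transcripts are short and many have near-identical processed copies, between which reads can be split. The median log2 difference was 0.187 in the decile of tested genes with the shortest transcripts and -0.0769 in that with the longest, and the part of length in these rises was not tested. Nuclear genes of oxidative phosphorylation, another list added after seeing the data, had a median of 0.19, with 7 of 79 higher and none lower by edgeR. That count ranged from 0 (without the day 2 males, and without day 2 sample 3 or day 8 sample 3) to 47 across settings.

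**Figure D1:**
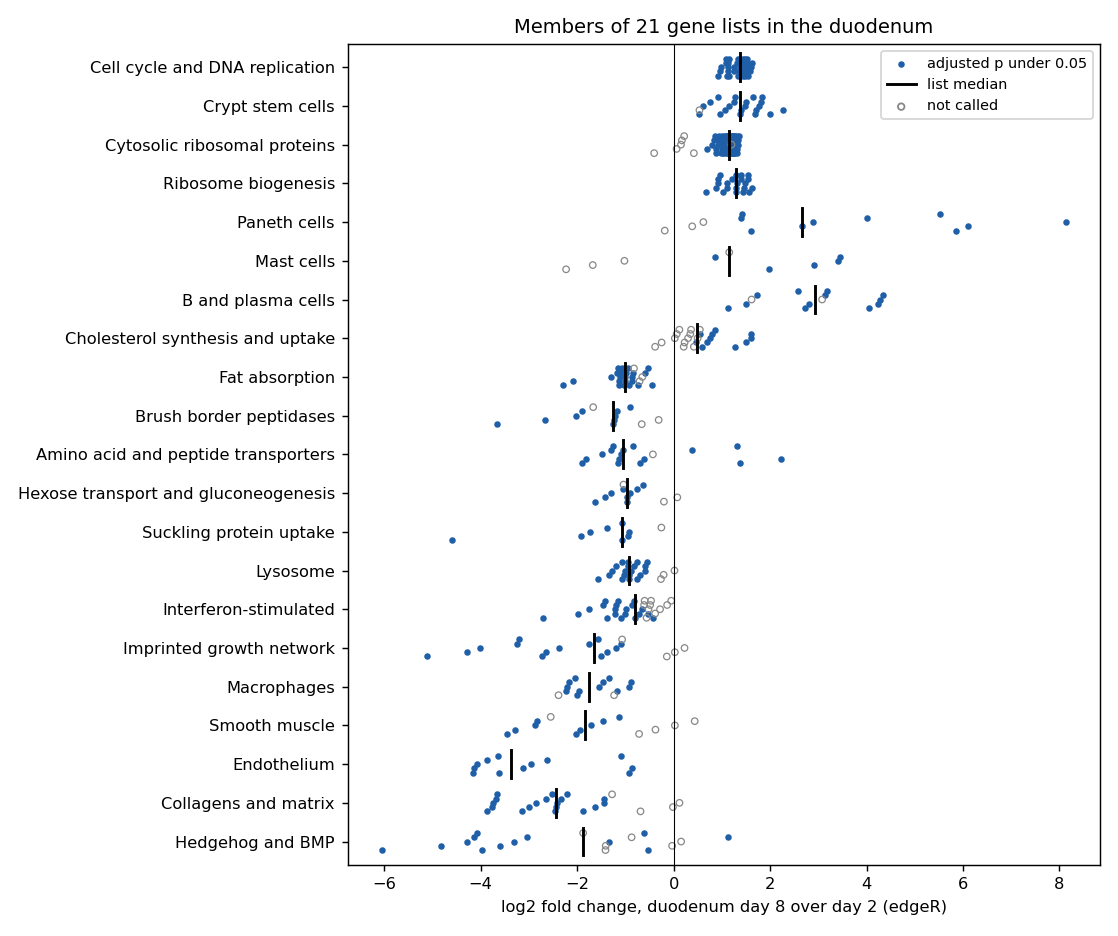
Each point is a tested gene of one of 21 lists, placed by its fitted log2 difference between day 8 and day 2 in duodenum; filled blue points passed the edgeR test, open points did not, and the black bar is the list's median. Most cell cycle, crypt and ribosomal genes lie to the right of 0, with medians between 1.15 and 1.38, and endothelium and collagen genes lie furthest to the left with medians of -3.37 and -2.43.

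Defensins of Paneth cells were among the steepest rises. Of 13 tested Paneth cell markers 10 passed as higher, with a median log2 difference of 2.66 and a sum that went from 237–294 CPM to 537–635 CPM. Defa23 was at 0.942, 0.636 and 0.648 CPM at day 2 and at 27.8, 29.7 and 24.5 CPM at day 8 (5.22 ± 0.45, edgeR adjusted p = 3.65e-09). The 3 samples of each age lay close together on either side of a wide gap. Defa2 went from 0.228, 0.123 and 0.0810 CPM to 14.6, 13.3 and 12.1 CPM (6.57 ± 0.52, edgeR adjusted p = 1.29e-09). Defa24 carried most of the sum at day 2: it stood at 163, 148 and 134 CPM and then at 236, 248 and 198 CPM, a log2 difference of 0.62 ± 0.29 that did not pass (edgeR adjusted p = 0.0852). Alpha-defensin genes are near-identical copies and the counting may have shared reads among them, so the values of single members are uncertain. Over all 28 alpha-defensin genes in the table, a list added after seeing the data, 25 were tested and 23 were higher. Their summed level went from 203–247 CPM to 507–627 CPM, and the median log2 difference was 4.48 with the 5 members at 0 in every day 2 sample set to a bound of 3 counts.

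Among all tested genes the smallest p-value was that of Pkp1, plakophilin 1 of desmosomes, at 0.171, 0.534 and 0.283 CPM at day 2 and 31.3, 28.4 and 27.4 CPM at day 8 (6.4 ± 0.30, edgeR adjusted p = 1.16e-14). Vdr, the vitamin D receptor, went from 29.2, 30.6 and 33.2 CPM to 129, 126 and 134 CPM. The groups were far apart next to the spread within either age (2.06 ± 0.15, edgeR adjusted p = 6.19e-11). Mycl, a relative of Myc, rose by 2.14 ± 0.17, the carboxylesterase gene Ces2g by 3.39 ± 0.28, the secreted Wnt inhibitor Sfrp5 by 3.28 ± 0.37 and the guidance gene Sema5a by 2.61 ± 0.21. Among 17 tested genes of iron and calcium absorption 2 were higher, Vdr and the transferrin receptor Tfrc (1.01 ± 0.21), and 9 were lower. The ferroxidase Heph fell by 1.05 on the log2 scale and the ferritin light chain Ftl1 fell by 0.83. The count of lower genes was 5 without the day 2 males, 4 without day 2 sample 1 and 2 with all 48 samples in the fit.

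**Figure D2:**
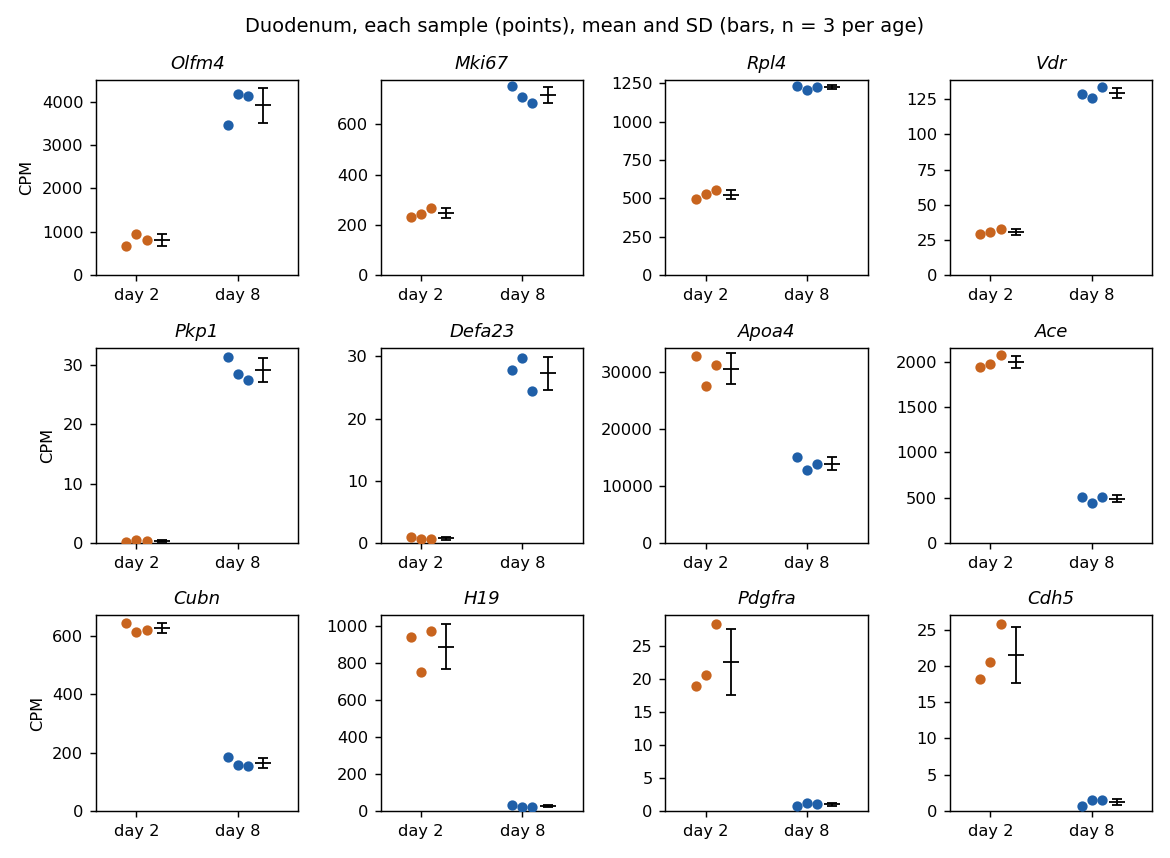
Each panel gives 1 gene's level in CPM in the 3 day 2 and 3 day 8 duodenum samples (points), with the mean and SD, on its own linear axis. Olfm4, Mki67, Rpl4, Vdr, Pkp1 and Defa23 are higher in every day 8 sample than in any day 2 sample, and Apoa4, Ace, Cubn, H19, Pdgfra and Cdh5 are lower in every one.

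Genes of cholesterol synthesis and uptake that passed the test were all higher. Of 24 genes on that list 11 were higher, 13 did not pass and none were lower by edgeR, with a median log2 difference of 0.48. Members of the list were called lower under another setting. Idi1, which makes the activated isoprene unit, went from 46.5, 42.5 and 41.1 CPM to 134, 135 and 126 CPM (1.6 ± 0.21, edgeR adjusted p = 7.94e-07). Mevalonate kinase (Mvk) rose by 1.5 ± 0.23 and squalene epoxidase (Sqle) by 1.26 ± 0.29. The count was 2 without the day 2 males, 6 or 7 without day 2 sample 2 or 3 or day 8 sample 1 or 2, and 18 with only the 6 samples in the fit.

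Genes by which enterocytes absorb milk fat fell. Of 26 fat absorption genes 23 passed as lower and none as higher, with a median log2 difference of -0.998, and their sum went from 61380–70730 CPM to 28990–34080 CPM. Apoa4, an apolipoprotein of chylomicrons, was at 32950, 27619 and 31318 CPM at day 2 and at 15116, 12844 and 13927 CPM at day 8. All 3 day 8 samples lay below the lowest day 2 sample, with a log2 difference of -1.13 ± 0.38 (edgeR adjusted p = 0.0173). Dgat2, which completes triglyceride synthesis, went from 1398, 1290.3 and 1240.5 CPM to 684, 573 and 579 CPM (-1.10 ± 0.20, edgeR adjusted p = 5.66e-05). The lipid droplet proteins Plin3 and Cideb fell by 0.83 and 0.92 on the log2 scale, and the cholesterol exporter Abca1 fell by 2.29. Of 25 tested genes of fatty acid oxidation and ketogenesis 6 were lower and 1 higher, with a median of -0.28.

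Peptidases, transporters and sugar handling followed the same direction. Of 12 tested brush border peptidases 9 were lower and none higher, with a median log2 difference of -1.25 and a sum of 6987–7566 CPM at day 2 and 2485–3020 CPM at day 8. Ace, angiotensin-converting enzyme, went from 1944, 1973 and 2077 CPM to 512, 447 and 509 CPM (-2.03 ± 0.33, edgeR adjusted p = 1.3e-05). On the log2 scale the meprin subunit Mep1b fell by 1.21 and gamma-glutamyl transferase Ggt1 fell by 2.67. Enteropeptidase, Tmprss15, which activates trypsin in the duodenum, varied more within an age: 81.0, 34.6 and 63.7 CPM and then 6.69, 5.10 and 2.33 CPM (-3.66 ± 0.95, edgeR adjusted p = 0.00297).

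Of 17 amino acid and peptide transporters 12 were lower and 4 higher. The lower ones included those of the enterocyte surface, with the imino acid transporter Slc6a20a at -1.83 ± 0.24, the cystine transporter subunit Slc7a9 at -1.15 ± 0.16 and the neutral transporter Slc6a19 at -1.14 ± 0.23 on the log2 scale. Among the higher ones was Slc1a1, a glutamate transporter, which went from 3.08, 2.85 and 3.52 CPM to 16.2, 14.5 and 13.7 CPM (2.23 ± 0.27). Slc1a5, a glutamine transporter of dividing cells, rose by 1.31 ± 0.18. Of 12 genes of hexose transport and gluconeogenesis 9 were lower and none higher, with a median of -0.97. Pck1, the first committed enzyme of gluconeogenesis, went from 1816, 1714 and 1955 CPM to 621, 516 and 634 CPM (-1.63 ± 0.37, edgeR adjusted p = 0.000646), and G6pc, which releases free glucose, fell by 1.29. Among 4 disaccharidases only Lct, the lactase gene, passed the test. It was at 2991, 2613 and 2805 CPM and then at 1061, 909.6 and 895 CPM (-1.55 ± 0.50, edgeR adjusted p = 0.0132). Of 4 tested alkaline phosphatases 1 was lower and 1 higher. The lower one was Alpi, the intestinal enzyme, at -1.44 ± 0.23.

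The machinery that takes up whole proteins in sucklings fell as well. Of 9 genes for suckling protein uptake 8 were lower, with a median log2 difference of -1.08. The count was 5 without the day 2 males and 4 with all 48 samples in the fit. Cubn, the endocytic receptor cubilin, went from 647, 614 and 623 CPM to 184, 157 and 154 CPM (-1.93 ± 0.25, edgeR adjusted p = 9.47e-07). The 3 samples of each age were close to one another. Its partner receptor megalin, Lrp2, went from 8.76, 13.5 and 10.8 CPM to 0.318, 0.303 and 0.742 CPM (-4.60 ± 0.54, edgeR adjusted p = 3.73e-07). Fcgrt, the receptor that carries maternal IgG across the epithelium, went from 3381, 3167 and 3263 CPM to 1628, 1457 and 1577 CPM (-1.07 ± 0.25, edgeR adjusted p = 0.000951). The adaptor Dab2 fell by 1.38 and Prdm1, the repressor known as Blimp-1 that marks the suckling epithelium, fell by 0.92 on the log2 scale. Of 23 lysosome genes 20 were lower, with a median of -0.92 and a sum of 7999–8395 CPM at day 2 and 4114–4526 CPM at day 8. Glb1, lysosomal beta-galactosidase, went from 488, 441 and 467 CPM to 165, 149 and 159 CPM (-1.56 ± 0.22, edgeR adjusted p = 1.89e-06). Tpp1, a lysosomal peptidase, fell by 1.20, the lysosomal lipase Lipa by 1.07 and Lamp2, a membrane protein of lysosomes, by 0.95. With all 48 samples in the fit 10 of the 23 were lower.

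Some falls were steeper than those of the lists. Trf, which encodes the iron carrier transferrin, was at 126, 102 and 101 CPM at day 2 and at 4.72, 7.89 and 5.74 CPM at day 8 (-4.16 ± 0.32, edgeR adjusted p = 1e-09). Gatm, which makes the precursor of creatine from arginine, went from 564, 399 and 456 CPM to 50.8, 40.5 and 51.2 CPM (-3.32 ± 0.24, edgeR adjusted p = 6.19e-11). Cldn1, a tight junction claudin, went from 11.4, 8.91 and 7.87 CPM to 1.04, 1.11 and 0.873 CPM (-3.21 ± 0.28), whereas 9 of the 12 tested claudins did not pass in either direction.

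Arginine synthesis genes did not move as 1 block. Of 13 genes 5 were higher and 3 lower. Cps1, which feeds ammonia into citrulline, was at 2524, 2711 and 2649.5 CPM and then at 4251, 4018 and 3978 CPM (0.64 ± 0.18, edgeR adjusted p = 0.00531). Ass1 and Asl, which turn citrulline into arginine, fell by 1.20 and 0.68 on the log2 scale, Ass1 from 413, 415 and 406 CPM to 193, 160.0 and 184 CPM (edgeR adjusted p = 0.000388). Arg2, an arginase, went from 1.20, 0.739 and 0.972 CPM to 8.24, 5.99 and 7.79 CPM (2.93 ± 0.54, edgeR adjusted p = 9.62e-05). The number of higher genes was 2 without the day 2 males and 3 without day 2 sample 3 alone.

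Among secretory cells, 5 of 18 goblet cell markers were higher and 5 lower, against 21.6% higher and 21.4% lower of all tested genes. Fcgbp, a protein of mucus, was at 3385, 1944 and 2124 CPM at day 2 and at 954, 932 and 896 CPM at day 8 (-1.42 ± 0.24, edgeR adjusted p = 2.19e-05), with day 2 sample 1 the highest. None of the 18 was higher by edgeR without the day 2 males, and 3 were without day 2 sample 2 or 3 or day 8 sample 2. Of 22 tested enteroendocrine markers 6 were higher and 2 lower. Neurog3, the transcription factor of their progenitors, went from 1.37, 1.6 and 1.44 CPM to 4.87, 5.89 and 5.04 CPM (1.84 ± 0.30), and the hormone genes Tac1 and Gcg rose by 1.49 ± 0.24 and 1.31 ± 0.22. Chgb, a granule protein of mature endocrine cells, was at 238 ± 23.6 CPM and then at 286 ± 11.9 CPM (SD, n = 3) and did not pass (edgeR adjusted p = 0.35). Of 14 tested tuft cell markers 6 were higher and 2 lower, and 3 were higher without the day 2 males. Pou2f3, the transcription factor that defines tuft cells, went from 0.143, 0.185 and 0.223 CPM to 1.38, 1.36 and 1.37 CPM (2.86 ± 0.44). Ptgs1, a cyclooxygenase that tuft cells share with other cells, went from 6.82, 7.74 and 9.17 CPM to 1.52, 1.27 and 2.05 CPM (-2.29 ± 0.29). The summed level of the whole tuft list was lower at day 8, at 59.3–67.08 CPM against 71.87–81.71 CPM at day 2.

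Genes of ion transport, epithelial transcription factors and xenobiotic metabolism were called in both directions. Of all tested genes 21.6% were higher at day 8 and 21.4% lower. Of 18 tested ion and fluid transport genes 7 were higher and 4 lower, with 4 higher without the day 2 males. The chloride-loading cotransporter Slc12a2 went from 315, 370.1 and 361 CPM to 813, 833 and 867 CPM (1.27 ± 0.21, edgeR adjusted p = 1.76e-05). The potassium channel subunits Kcnq1 and Kcne3, which support chloride secretion, rose by 1.53 ± 0.19 and 1.77 ± 0.22. Slc26a3, the chloride-bicarbonate exchanger of villus cells, went from 337, 326 and 311 CPM to 153, 136 and 144 CPM (-1.17 ± 0.14, edgeR adjusted p = 2.82e-07). Of 31 epithelial transcription factors 10 were higher and 8 lower. Foxa1 rose by 0.86 ± 0.14 and Hnf4a by 0.52 ± 0.13, while Maf fell by 0.86. Of the 31, 5 were higher without the day 2 males, and without day 2 sample 1 alone 4 were lower. Of 31 tested xenobiotic metabolism genes 8 were higher and 7 lower, and 1 was higher without the day 2 males.

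In the lists of mast cells, B and plasma cells and red blood cells, genes were called higher at day 8 and none lower. Mast cell genes were higher for 5 of 9 tested. Mcpt1, a protease of mucosal mast cells, was at 2.85, 2.38 and 2.00 CPM and then at 35.2, 22.5 and 19.5 CPM (3.42 ± 0.51, edgeR adjusted p = 6.88e-06). Of 14 B and plasma cell genes 12 were higher, with a median log2 difference of 2.94 and a sum of 3.71–5.85 CPM at day 2 and 11.8–28.3 CPM at day 8. Cd79a, a chain of the B cell receptor complex, went from 0.143, 0.246 and 0.162 CPM to 1.04, 1.72 and 2.40 CPM (3.18 ± 0.55, edgeR adjusted p = 3.55e-05). Day 8 sample 3 was the highest in Cd79a and in Pax5, the B cell identity factor, which stood at 0.635, 1.05 and 2.44 CPM. Without day 8 sample 3 the count was 7, and without day 2 sample 3, or without both day 2 males, it was 6. Red blood cell genes, which measure blood left in the piece, were higher for 6 of 10 tested. Their sum was 127.8–329.9 CPM at day 2 and 638.8–888.5 CPM at day 8, and the beta-globin gene Hbb-bs rose by 1.93 ± 0.58. The part of blood in the B cell values was not tested. Leaving out the day 2 males, 3 mast cell and 3 red blood cell genes were higher. In bulk tissue, fewer cells of a type and less RNA per cell cannot be told apart, here and in each list of cell markers.

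Genes of the interferon response were lower at day 8. Of 30 interferon-stimulated genes 20 passed as lower and none as higher, with a median log2 difference of -0.80 and a sum of 1153–1443 CPM at day 2 and 745–785.4 CPM at day 8. Stat2, which carries the type I and III interferon signal, went from 109, 99.3 and 113 CPM to 41.5, 38.5 and 37.4 CPM (-1.45 ± 0.16, edgeR adjusted p = 4.51e-08). Ddx58, the RNA sensor RIG-I, was at 88.6, 75.2 and 83.0 CPM and then at 37.3, 38.2 and 35.9 CPM (-1.15 ± 0.12, edgeR adjusted p = 4.36e-08). For both genes all 3 day 8 samples lay well below the day 2 samples. Parp14 fell by 1.22 and Irf9, the DNA-binding partner of Stat2, fell by 0.81. Ifit1 was at 168, 156 and 172 CPM and then at 114, 107 and 124 CPM and did not pass (-0.52 ± 0.23, edgeR adjusted p = 0.0728).

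Interferon acts through response elements built on repeats of GAAA, and 3 of the lower genes are shown with GAAA, any 2 bases and GAAA again, or the reverse complement of that run, in capitals. The windows are Ddx58 at chr4:40239806-40239975 (minus), Gbp2 at chr3:142620513-142620682 (plus) and Oas1a at chr5:120907506-120907675 (minus), printed as for the cell cycle genes. In Oas1a overlapping matches run together.
Ddx58: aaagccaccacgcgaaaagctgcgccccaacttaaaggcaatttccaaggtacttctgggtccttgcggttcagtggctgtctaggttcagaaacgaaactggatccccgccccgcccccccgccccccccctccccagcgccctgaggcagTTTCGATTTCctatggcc
Gbp2: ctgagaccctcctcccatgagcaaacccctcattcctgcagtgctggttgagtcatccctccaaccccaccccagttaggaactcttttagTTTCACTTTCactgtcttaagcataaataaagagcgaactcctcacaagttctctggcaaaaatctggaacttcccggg
Oas1a: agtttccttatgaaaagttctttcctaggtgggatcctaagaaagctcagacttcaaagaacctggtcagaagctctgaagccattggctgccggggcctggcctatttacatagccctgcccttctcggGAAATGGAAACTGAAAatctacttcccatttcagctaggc
Of 20 listed genes with a window 10 (50%) held the motif, against 1.83% of all 27025 windows. Lower at day 8 were 5 of those 10, against 20 of the whole list of 30. The other holders, Bst2, Ifit1, Isg15, Oas3 and Rsad2, were not called. Gbp2, an interferon-induced GTPase, went from 1.40, 2.15 and 1.92 CPM to 0.508, 0.607 and 1.00 CPM (-1.37 ± 0.34, edgeR adjusted p = 0.00173). Oas1a, a sensor that makes the activator of RNase L, went from 30.9, 25.2 and 32.8 CPM to 18.6, 18.1 and 17.5 CPM (-0.71 ± 0.24, edgeR adjusted p = 0.0153). Oas1a has near-identical neighbours, so reads may be shared among them.

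Macrophage genes were lower for 12 of 14, with a median log2 difference of -1.75. C1qa, a complement chain made by tissue macrophages, went from 6.82, 6.16 and 7.83 CPM to 1.65, 1.32 and 1.51 CPM (-2.22 ± 0.37, edgeR adjusted p = 2.07e-05). Csf1r, the receptor that macrophages need to survive, went from 101, 111 and 102 CPM to 55.2, 54.0 and 56.8 CPM (-0.92 ± 0.18). For both genes all 3 day 8 samples lay below the day 2 samples. Of 10 class II antigen presentation genes 4 were lower and 2 higher. Cd74, the invariant chain, went from 19.9, 28.0 and 24.2 CPM to 11.9, 11.4 and 14.5 CPM (-0.93 ± 0.32, edgeR adjusted p = 0.0183), and H2-Ob, which B cells use, from 0.0856, 0.103 and 0.0607 CPM to 0.656, 1.76 and 2.77 CPM. Without day 2 sample 2, 1 of the 10 was lower. Without the day 2 males, or with all 48 samples in the fit, edgeR called none lower. Of 16 tested T and innate-like lymphocyte genes 2 were higher and 14 did not pass, and of 9 neutrophil genes 1 was lower. Among 22 tested antimicrobial and inflammatory genes of the epithelium 7 were higher and 5 lower. The mucin-like scavenger Dmbt1 went from 1084, 866 and 1005 CPM to 2839, 2545 and 2567 CPM (1.43 ± 0.51, edgeR adjusted p = 0.0239), and the flagellin receptor Tlr5 fell by 1.17. Higher were 2 of the 22 without the day 2 males, and 4 without day 2 sample 3 or day 8 sample 1.

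Genes of the wall beneath the epithelium fell steeply, and the endothelial list had the lowest median of all lists. All 12 endothelial genes were lower, with a median log2 difference of -3.37 and a sum of 184–255.8 CPM at day 2 and 22.6–30.4 CPM at day 8. Cdh5, the cadherin of vessel lining cells, was at 18.2, 20.6 and 25.7 CPM and then at 0.699, 1.48 and 1.48 CPM (-4.14 ± 0.43, edgeR adjusted p = 4.51e-08). The lowest day 2 sample was more than an order of magnitude above the highest day 8 sample. Plvap, of fenestrated capillaries, fell by 4.08, Kdr, the main VEGF receptor, by 3.88 and Flt4, the receptor of lymphatic vessels, by 4.17 on the log2 scale.

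Of 23 collagen and matrix genes 19 were lower, with a median log2 difference of -2.43 and a sum of 575.4–757.9 CPM at day 2 and 64.9–147.9 CPM at day 8. Col4a1, a chain of basement membrane collagen, was at 138, 153 and 205 CPM and then at 9.46, 13.7 and 13.6 CPM (-3.75 ± 0.47, edgeR adjusted p = 9.28e-07). Col15a1 and Col18a1, other collagens of the basement membrane zone, fell by 3.77 and 2.86. Pdgfra, the receptor that marks fibroblasts under the epithelium, went from 18.8, 20.5 and 28.2 CPM to 0.741, 1.19 and 0.982 CPM (-4.53 ± 0.38, edgeR adjusted p = 1.85e-09). Glp2r, the GLP-2 receptor, went from 5.42, 7.31 and 8.87 CPM to 0.36, 0.162 and 0.349 CPM (-4.62 ± 0.40, edgeR adjusted p = 1.91e-09).

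Most Hedgehog and BMP genes were lower too: of 19 genes on that list 12 were lower and 1 higher. The sum of the list fell less steeply, from 179.9–199.2 CPM to 134.4–144.2 CPM. Bmp4, a ligand that restrains crypts, went from 4.79, 8.74 and 7.59 CPM to 0.127, 0.546 and 0.567 CPM (-4.08 ± 0.59, edgeR adjusted p = 3.82e-06), and Bmp5 fell by 4.28. Foxf1, a Hedgehog-driven transcription factor of gut mesenchyme, went from 5.65, 7.29 and 8.54 CPM to 0.381, 0.546 and 0.829 CPM (-3.61 ± 0.38). Fendrr, the long noncoding RNA beside Foxf1 in the genome, went from 7.25, 8.99 and 11.5 CPM to 0.0635, 0.243 and 0.284 CPM (-5.53 ± 0.51, edgeR adjusted p = 5.63e-09). Each of these genes was at under 1 CPM in every day 8 sample.

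Of 14 smooth muscle genes 9 were lower, with a median of -1.83. Their sum was 371.6–410 CPM at day 2 and 166.8–191.6 CPM at day 8. Myh11, smooth muscle myosin, was at 6.22, 8.25 and 11.9 CPM and then at 0.974, 1.05 and 1.68 CPM (-2.83 ± 0.65, edgeR adjusted p = 0.000948), and Des, the filament protein of muscle, at 4.25, 4.90 and 4.78 CPM and then at 0.339, 0.405 and 0.524 CPM (-3.45 ± 0.52). Myh11 and Des thus stood at 1.68 CPM or less at day 8 in samples labelled as whole thickness, while other genes of the list kept higher levels. Of 14 tested enteric neuron genes 7 were lower and 1 higher, and 3 were lower without the day 2 males, with only the 6 samples in the fit, or by limma at a pseudocount of 0.1. Of 7 tested glia genes 4 were lower. Endothelial, collagen, muscle and macrophage lists thus fell in the same 3 libraries. How much wall each piece held was not recorded in the labels, and its part in these falls was not tested. Pancreatic acinar genes, a sign of attached pancreas, summed to 1002 CPM at the highest and 52.1 CPM at the lowest at day 2, with sample 1 the highest, and to 63.3–88.2 CPM at day 8. Of 19 tested 9 were lower, and edgeR called none without day 2 sample 1 and 16 without the day 2 males.

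Genes of a network of imprinted genes linked to growth before birth fell as a group. Of 18 genes of that network 14 were lower and none higher, with a median log2 difference of -1.66 and a sum of 2476–2764 CPM at day 2 and 733–786.1 CPM at day 8. H19, a noncoding RNA, went from 937, 748 and 973 CPM to 30.9, 23.8 and 21.9 CPM (-5.12 ± 0.66, edgeR adjusted p = 1.34e-06). Igf2, the growth factor expressed from the same cluster, went from 557, 476 and 508 CPM to 60.4, 49.9 and 57.8 CPM (-3.20 ± 0.30, edgeR adjusted p = 7.09e-09). The day 8 samples of both genes lay close together. Meg3, another imprinted noncoding RNA, fell by 3.25 and Peg3, an imprinted zinc finger gene, fell by 1.56. Of 18 circadian clock genes 2 were higher and 6 lower. Of 13 tested genes of glucocorticoid response and steroid synthesis 3 were higher, among them the receptor Nr3c1 (0.49 ± 0.11), and 3 were lower, among them Sgk1 (-1.60 ± 0.26). Of 11 tested EGF family genes 1 was higher and 3 were lower.

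Ileum was compared at the same ages to find which of these changes differed between regions. There 3865 genes were called (18.9%), and the change itself differed between regions for 3300 genes (16.1%), with 1645 higher in ileum relative to duodenum (8.05%) and 1655 lower (8.1%). Ileum day 8 libraries were shallower than those of duodenum, from 17687321 counts, with mitochondrial shares of 18.02 to 32.75%. With the sex index in the fit the ileum count was 3004 and the interaction count 3250. The ileum count was 307 without its day 2 males, 1073 with all 48 samples in the fit, 1614 without ileum day 8 sample 1, and 2397 and 2234 without ileum day 2 sample 2 or 3. The interaction count was 196 without the day 2 males of both regions and 236 with all 48 samples in the fit. It was 1381 without ileum day 2 sample 3, from 1453 to 1943 without any 1 of the duodenum day 8 samples, 1796 and 2158 without duodenum day 2 sample 3 or 1, and 1891 without ileum day 8 sample 3.

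**Figure D3:**
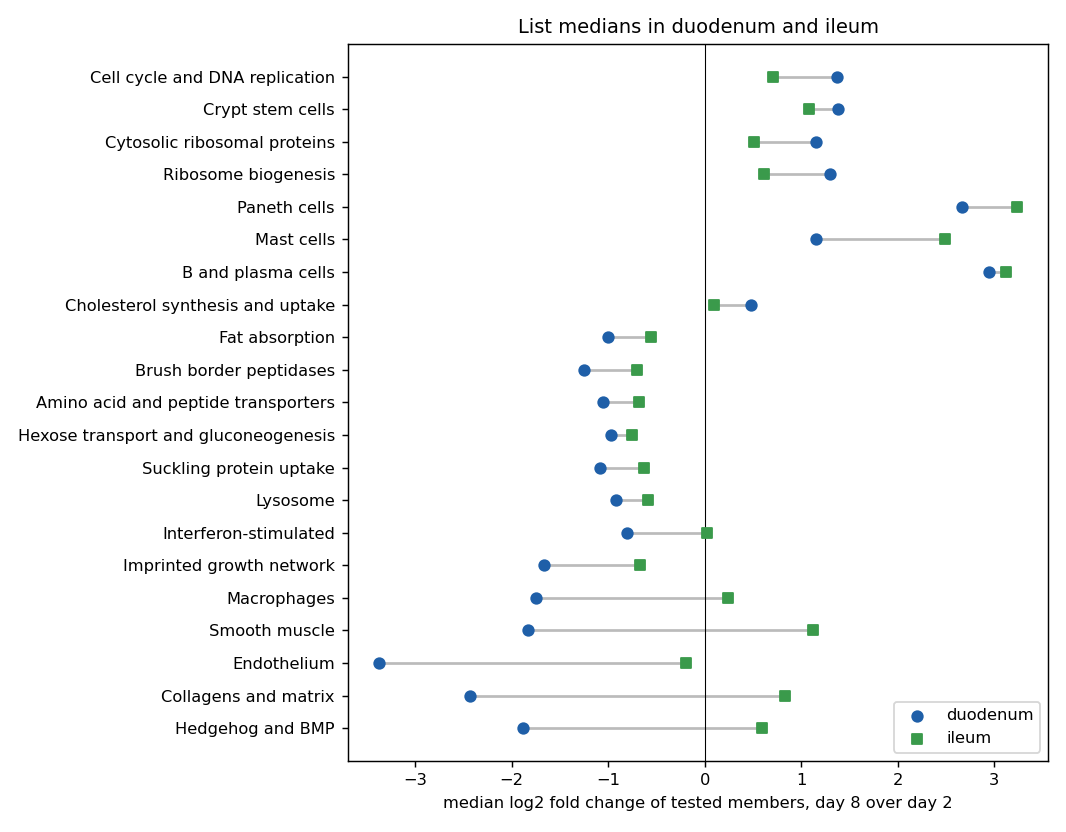
For 21 gene lists, circles give the median log2 difference between day 8 and day 2 in duodenum and squares the same median in ileum. Endothelium stands at -3.37 in duodenum and -0.19 in ileum and collagens at -2.43 and 0.83, while the crypt list stands at 1.38 and 1.08.

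The wall genes and the Hedgehog and BMP list held the widest regional differences. Pdgfra was at 17.4 ± 3.71 CPM (SD, n = 3) in ileum at day 2 and 21.3 ± 2.59 CPM at day 8, and the ileum change exceeded that of duodenum by 4.82 ± 0.49 on the log2 scale (edgeR adjusted p = 6.06e-07). The same test passed for 20 of 23 collagen and matrix genes, 11 of 12 endothelial genes, 11 of 19 Hedgehog and BMP genes, 9 of 14 smooth muscle genes and 9 of 14 macrophage genes, with the ileum change above that of duodenum in every case. Without the day 2 males these counts were 12, 3, 5, 1 and 0, and with all 48 samples in the fit 4, 6, 4, 1 and 0. The smooth muscle count was 5 without duodenum day 8 sample 1 or 2 or ileum day 2 or day 8 sample 3. Within ileum 8 of the 23 collagen genes rose and none fell by edgeR, and none of the 12 endothelial genes passed in either direction. Cd74 was at 12.4 ± 3.29 CPM in ileum at day 2 and 25.2 ± 1.68 CPM (SD, n = 3) at day 8, the opposite direction to duodenum (interaction 1.96 ± 0.45, edgeR adjusted p = 0.00489). Of the 10 class II genes 8 rose in ileum and the interaction passed for 6, and for 0 without the day 2 males or with all 48 samples in the fit. For interferon-stimulated genes the interaction passed for 13 of 30, and for Stat2 it was 0.96 ± 0.22 (edgeR adjusted p = 0.00378). That count was 0 without the day 2 males or with all 48 samples in the fit, and from 5 to 8 without duodenum day 2 sample 1 or 3, duodenum day 8 sample 1 or 2, or ileum day 2 sample 2 or day 8 sample 3.

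Vdr rose less in ileum, from 42.1 ± 5.53 to 71.0 ± 10.9 CPM (SD, n = 3), with an interaction of -1.31 ± 0.20 (edgeR adjusted p = 8.19e-05). Without the day 2 males the Vdr interaction was -1.13 and did not pass (edgeR adjusted p = 0.0597). Cps1 went from 3542 ± 325 to 2586 ± 279.7 CPM (SD, n = 3) in ileum, and its interaction was -1.09 ± 0.26 (edgeR adjusted p = 0.0051). Hnf4a, a regulator of enterocyte genes, rose in duodenum and went from 556 ± 24.5 to 457 ± 54.7 CPM (SD, n = 3) in ileum (interaction -0.81 ± 0.18, edgeR adjusted p = 0.00296). Ribosomal protein genes passed the interaction for 28 of 85, all with the lower value of the change in ileum, and cell cycle genes for 6 of 39. Without the day 2 males, with all 48 samples in the fit, or without ileum day 2 sample 3 both counts were 0. Without any 1 duodenum day 8 sample they were 1 and 0, and without ileum day 8 sample 1 they were 50 and 9. The ribosomal count was 14 and 5 without duodenum day 2 sample 1 or 3, and 8 without ileum day 8 sample 2 or 3. The cell cycle count was 1 without duodenum day 2 sample 1 or 3 or ileum day 8 sample 3, 2 without ileum day 8 sample 2 and 13 without ileum day 2 sample 2. For Rpl4 the interaction was -0.89 ± 0.26 (edgeR adjusted p = 0.0187), while for Olfm4 it was -0.06 ± 0.32 (edgeR adjusted p = 0.931), with ileum levels of 324 ± 63.7 and 1505 ± 148 CPM (SD, n = 3). Of the 26 fat absorption genes 13 fell in ileum too, and the median interaction of the list was 0.305.

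**Figure D4:**
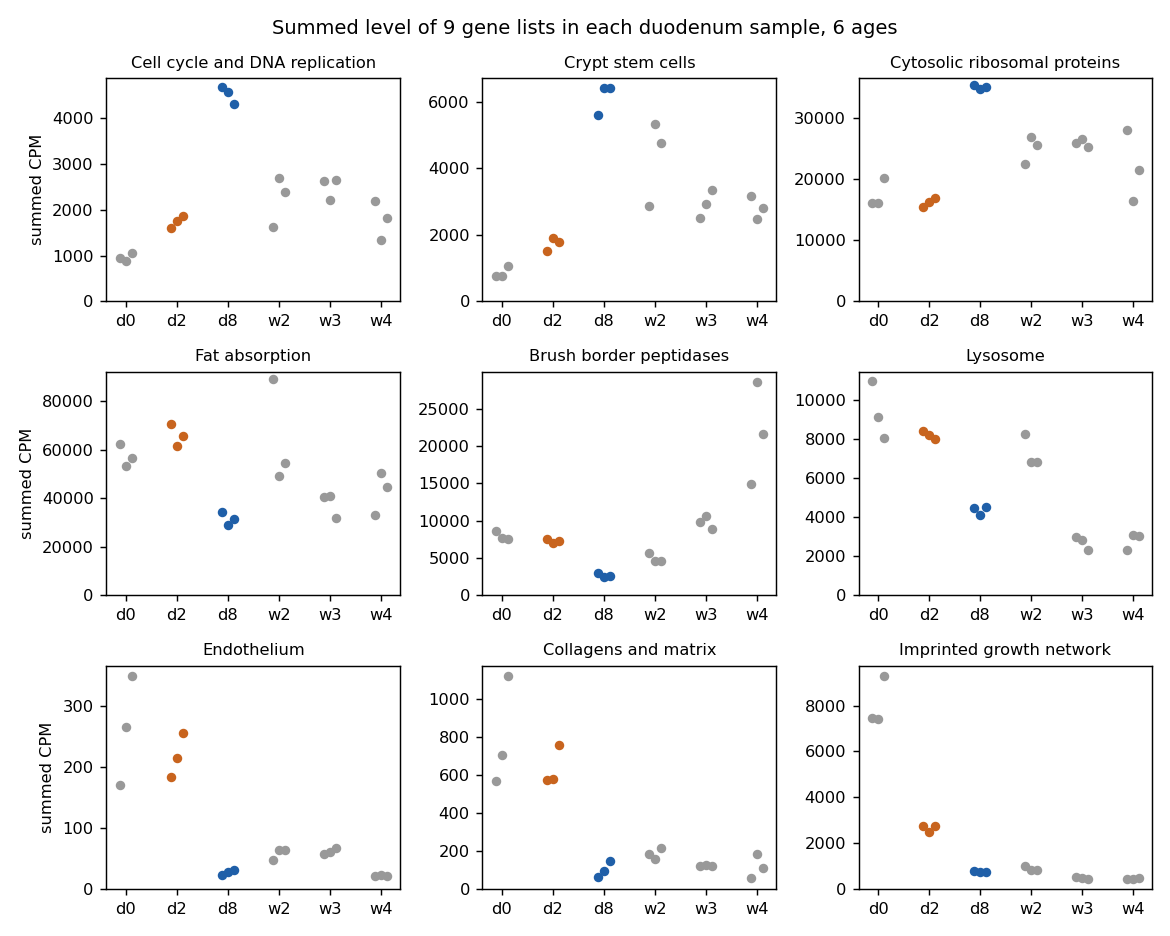
Each panel gives the summed level in CPM of one of 9 gene lists in every duodenum sample at days 0, 2 and 8 and weeks 2, 3 and 4, with day 2 in orange and day 8 in blue. Cell cycle sums peak at day 8 among these ages, fat absorption sums at day 8 lie below days 0 and 2 and week 2 and overlap weeks 3 and 4, and endothelium sums are high at days 0 and 2 and low from day 8 on.

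Set beside duodenum at days 0 and 2 and weeks 2, 3 and 4, the day 8 sums were the highest for some lists and low for others. These sums are descriptions, without a test. Cell cycle genes summed to 874–1049 CPM at day 0 and to 1635–2699 CPM at week 2, so that day 8, at 4316–4681 CPM, was above every sample of days 0 and 2 and weeks 2, 3 and 4. Ribosomal protein genes summed to at most 28060 CPM in any duodenum sample of those ages, against at least 34800 CPM at day 8. Fat absorption genes summed to 53280–62360 CPM at day 0, 49060–88920 CPM at week 2, 31730–40790 CPM at week 3 and 32870–50280 CPM at week 4, so that the day 8 level lay below those of day 0 and week 2 and overlapped those of weeks 3 and 4. Peptidase genes summed to 4541–5621 CPM at week 2, above day 8 and below day 2. Endothelial genes summed to 171–349 CPM at day 0, 47.2–64.0 CPM at week 2 and 21.1–22.9 CPM at week 4, and imprinted genes to 7402–9285 CPM at day 0 and 817–1013 CPM at week 2. Collagen and matrix genes summed to 567–1122 CPM at day 0 and to 158–215 CPM at week 2. Smooth muscle genes summed to 128.9–187 CPM at day 0 and to 301.9–402 CPM at week 2. Their day 8 level, at 166.8–191.6 CPM, thus overlapped that of day 0 and lay below those of day 2 and week 2.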

How the data were processed

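RNA levels were measured by sequencing total RNA. Per the submitters' processing notes the tools were STAR 2.6.1d, Salmon 0.14.2 and DESeq2 1.30.1 with build mm10, without their roles. The authors deposited estimated counts per gene as whole numbers, and normalized tables whose signal, tested on the values, is the estimated count divided by 1 factor per sample. The latter served only for limma alternatives and gene symbols. Symbols of 51106 genes came from the normalized table and 3357 more from GENCODE release M21.

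Group means of 36 samples in 12 groups (days 0, 2 and 8, weeks 2, 3 and 4 in both regions) were fitted with edgeR 4.0.16 in R 4.3.3 (trimmed mean scaling, low-count filter by group, robust quasi-likelihood test), with Benjamini-Hochberg adjustment over 20442 genes. Alternatives used limma 3.58.1, DESeq2 1.42.0, other scaling, filters and sample sets, and left out each sample in turn. On simulated data 101 of 200 genes changed by 2-fold (50.5%) were recovered over 20442 genes, with 8 false calls among 109. Depth was 34332542 to 48920343 counts per duodenum library, and chi-square values of 14.0 to 24.9 per gene set replicates apart beyond sampling noise.

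Named genes were the 15 largest rises and falls and the 10 smallest p-values among called genes with a symbol, at least 5 CPM and no overlap, and from each list the 4 smallest p-values, the largest change and the highest level. Also named were the 4 genes with the smallest interaction p-value in each direction, with the level and overlap limits met in either region. Their interaction values are extreme by that choice. A few others (Cdc20, Ube2c, Top2a, Gbp2 and Oas1a by the promoter rule, and genes given for their known role) were named after their values were seen. Samples, lists and members were chosen with earlier results of these data known. Promoter windows came from a RefSeq table of build GRCm38, first entry per symbol, and were chosen among called members holding every motif by smallest p. Oas1g, a near-identical paralog of Oas1a, was left out. Same-numbered duodenum samples of both ages had deviations correlated at 0.0568 to 0.0999, and same-numbered duodenum and ileum samples at 0.113 to 0.234 at day 2 and -0.047 to 0.0673 at day 8. Since not every pair exceeded 0.1, the numbers were not taken as pairs. At day 2 sex matched by number between the regions, with sample 1 female and samples 2 and 3 male in both. Whether same-numbered samples came from the same animal was not tested, and the interaction fit treats them as independent. Days 4 and 6 entered 1 alternative fit only.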

Additional observations from a re-analysis of the deposited data

Results flagged for a closer look

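The change from day 2 to day 8 differed between ileum and duodenum for 3300 genes by the interaction test of the edgeR fit (adjusted p under 0.05, 16.1% of those tested). Among them are 22 genes named for the size or p-value of their duodenum change or for the p-value of this interaction. Those named for the interaction p-value pass this test by choice, and they are not marked apart here. Values are ileum change minus duodenum change on the log2 scale. Among genes that fell in duodenum, the interaction was 6.33 for Fendrr, 5.07 for Col6a4, 4.82 for Pdgfra, 4.59 for Shank3, 4.57 for Aplnr, 4.46 for Bmp5, 4.17 for Glp2r, 4.10 for Flt4 and 4.00 for Tie1. It was 3.44 for Adamdec1, 3.43 for Npr3, 3.40 for Col18a1, 3.31 for Speg, 3.22 for Dysf, 2.53 for Lrp2, 1.53 for Dmxl2 and 1.05 for Gatm. Tie1, Flt4 and Aplnr are receptors of vessel cells, and Pdgfra, Bmp5, Fendrr and Adamdec1 are known from gut fibroblasts.

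Among genes that rose in duodenum, the interaction was -1.31 for Vdr, -1.30 for Zbtb38, -1.08 for Prep, -1.0 for Snd1 and -0.97 for Sema5a. Zbtb38 stood at 79.4 CPM in duodenum day 8 sample 1 and at 148 and 151 CPM in samples 2 and 3, and day 2 stood at 49.1, 46.7 and 49.0 CPM.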

How the results depend on the processing

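The duodenum count of 8788 genes ranged from 7386 to 7680 when 1 sample was left out, was 8789 with DESeq2's scaling, 9156 with DESeq2 and 11781 with only the 6 compared samples. It was 5325 without the day 2 males (2244 higher), and 2559 genes were lower with all 48 samples in the fit. Of 3865 ileum genes, 1073 (409 higher, 664 lower) were called with all 48 samples, 2330 (1105 lower) with no filter, 2403 (1271 lower) by limma at a pseudocount of 1, 2279 (1071 higher, 1208 lower) at 0.1, and 307 (175 higher, 132 lower) without the males. With only the 18 ileum samples 1050 were higher. Leaving out 1 sample gave 1614 to 3639, with 742 to 1625 higher and 872 to 2014 lower. The interaction count of 3300 was 236 (194 above, 42 below) with all 48 samples, 1954 (754 below) with no filter and 196 (193 above, 3 below) without the males. Leaving out 1 sample gave 1381 to 2870, with 1052 to 1751 above and 217 to 1423 below. With all 48 samples 2 glia, 2 clock and 3 epithelial transcription factor genes were lower in duodenum, and with only the 6 samples 13 fatty acid oxidation genes were lower and 11 enteroendocrine genes higher. The cause of these shifts was not tested. Among named genes, 3 changed direction with a call in either fit, all without duodenum day 2 sample 1. By edgeR they were Pnliprp1 at 1.02 (adjusted p = 0.297), Sycn at 1.25 (adjusted p = 0.247) and Ins2 at 5.0 (adjusted p = 0.0327). Changes of sign without a call in either fit were not counted. Ins2, for example, was at 0.44 and 0.74 by limma at pseudocounts of 1 and 0.1. Leaving out 1 other sample gave values down to -3.88 for Pnliprp1, -3.45 for Sycn and -2.40 for Ins2. Of 5000 values for named genes under other settings, 4752 kept the call or its absence, 200 lost the call and 45 gained it.

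The labels' sample numbers were not taken as pairs: same-numbered duodenum samples of both ages correlated at 0.0568 to 0.0999, although each of the 6 correlated best with its own number. Same-numbered duodenum and ileum samples correlated at 0.113 to 0.234 at day 2 but at -0.047 to 0.0673 at day 8. With the number as a replicate block the duodenum count was 8560 within the region and 11467 with only the 6 samples, the ileum counts 3458 and 3264, and the interaction count 3658 with a block joining both regions, where 19 of 30 interferon-stimulated, 38 of 85 ribosomal protein, 4 of 9 suckling uptake and 1 of 26 fat absorption genes passed the interaction. Leaving out a day 8 library moved the median of all genes to as low as -0.165 on the log2 scale.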
